A study of Mus musculus with 6 samples.

Results

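Npas4, its relatives Npas1, Npas2 and Npas3, and the partner genes Arnt and Arnt2 were followed in depolarized mouse neurons. These 6 genes were taken by symbol from the 43432 genes listed in each expression table, whatever their values, and all 6 were found. The cells were wild-type C57BL/6 cortical neurons from E16.5 embryos of both sexes, pooled, and were cultured for 7 days. All cultures, the 0 h group included, were kept overnight in 1 μM tetrodotoxin (TTX, a sodium channel blocker) and 100 μM DL-AP5 (an NMDA receptor blocker). KCl was then added to 55 mM, and cells were taken before it (0 h), after 2 h and after 6 h, with 2 libraries per time point and 6 in all. The 0 h group is therefore one of silenced neurons, not of neurons in plain medium, and the cultures hold several cell types. The replicates are described as biological duplicates, and what separates them (litter, dish or day) is not given in the sources used here, so p-values measure the spread between these libraries, which may be technical.

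The 6 genes encode transcription factors with a basic helix-loop-helix (bHLH) domain, which binds DNA, followed by PAS domains, which pair one family member with another. NPAS4 is made in neurons when calcium enters through depolarized membranes, and it has to pair with ARNT or ARNT2 to bind DNA. ARNT and ARNT2 are general partners that also serve the hypoxia factors, the dioxin receptor, the SIM proteins, NPAS1 and NPAS3. NPAS2 is a close relative of the circadian factor CLOCK and pairs with BMAL1, the product of Arntl.

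Npas4 was the member with the largest change. It was low in silenced neurons, was the most abundant of the 6 genes per length at 2 h, and was below Arnt2 but still far above its starting level at 6 h. Arnt and Npas2 had the opposite course over the first 2 h, with their lowest level at 2 h and their highest at 6 h, and for both the 6 h level was called higher than that of 2 h. Arnt2, Npas3 and Npas1 were not called in any comparison. Called means here an adjusted p of 0.05 or less from DESeq2 together with a log2 fold change beyond 1 in either direction, the thresholds in the methods of the study.

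Total expected counts lay between 25959298 and 28573067 per library, and precision from counts covers counting error only. The 2 h replicates differed more than the others, with an SD of the log2 difference of 0.429 over 12290 genes against 0.246 at 0 h and 0.214 at 6 h, and this difference followed the GC content of the genes (Spearman's rho across genes -0.75). With library totals in place of size factors the median log2 fold change of expressed genes was -0.156 at 2 h against 0 h and -0.251 at 6 h against 0 h, and the share of called genes that were higher was 27.3% in place of 37.8% and 28.7% in place of 47.2%. The 6 pan-neuronal markers summed to 5058 to 5590 TPM, although Tubb3 among them was called lower at 6 h against 0 h (-1.01), and the astrocyte marker Gfap was at 13.8 to 30.9 TPM. The 5 microglial markers summed to at most 4.34 TPM and the 6 vascular and fibroblast markers to at most 3.71 TPM. In such bulk libraries, fewer cells of a type and less RNA per cell cannot be told apart.

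The start regions of the 6 genes were read first, because cyclic AMP response elements (CREs), the sites read by the calcium-responsive factor CREB, are known from activity-regulated promoters. A window of 300 bases, from 250 before to 50 after the RefSeq start on GRCm38.p6, was found for all 6 genes. It was searched on both strands for the full CRE TGACGTCA, its core TGACG (of which a full CRE holds a pair that overlap), the E-box CACGTG, the letters ACGTG (also inside the E-box) and the CArG box bound by serum response factor. Only Npas4 and Arnt held CRE cores, and the stretches below show them in capitals, 5′ to 3′ along each gene. The Npas4 stretch is chr19:4990129-4990158 on the minus strand, from -187 to -158 of the RefSeq start. The first Arnt stretch is chr3:95434140-95434169 and the second chr3:95434163-95434192, both on the plus strand, and they share a few bases.
Npas4: ccgttcgaCGTCAcgggaTGACGtcggaag
Arnt, first: ttgcatttcacTGACGTCAatttggttatg
Arnt, second: ggttatgaatctcTGACGccgagaaggccg

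The Npas4 stretch held 2 CRE cores, one on each strand, and no full CRE. The Arnt window held 1 full CRE and 1 further core, 3 matches to the core in all. Of 32851 windows in the RefSeq set, 20.8% held the core, 5.01% held at least 2 and 1.79% held the full CRE, so such matches are found widely. The letters ACGTG were found once each in Npas2 and Npas3 and in 19.6% of all windows. No E-box (7.15% of windows) and no CArG box (1.63%) was found in the 6 windows. The Npas4 transcript in the deposited table, ENSMUST00000056129, starts 345 bases upstream of the RefSeq start in GENCODE M21, so its stretch lies in the first exon and UTR of that transcript. The whole Npas4 window lies downstream of that transcript's start. Nothing before that start was searched, so the motifs not found in the window may still lie there. The listed Npas3 transcript starts 245 bases downstream of the RefSeq start, beyond the end of its window. For Arnt the starts in both annotations were the same, and the stretches lie before them. A match of letters is a description and says nothing of binding in these cells.

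**Figure D1:**
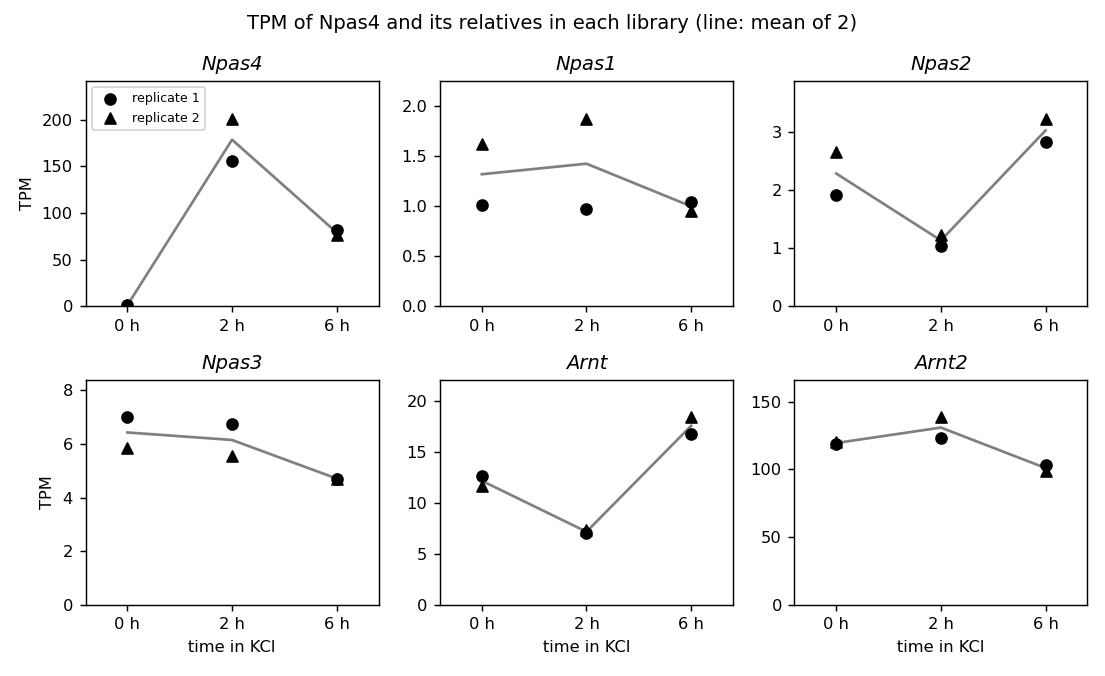
TPM of each gene (vertical axis, from 0, scaled per gene) against time in KCl (0 h, 2 h and 6 h). Circles and triangles are replicates 1 and 2 and the line joins the means of 2 libraries. Npas4 peaks at 2 h (155.79 and 201.16 TPM), while Arnt and Npas2 are lowest there.

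Npas4, the activity-dependent member, lies on chromosome 19 (ENSMUSG00000045903, 4984355 to 4990316, minus strand). Its expected counts were 53 and 45 before KCl, 7477 and 9170 after 2 h, and 3644 and 3360 after 6 h. Per length, it was at 1.11 and 0.91 TPM before KCl, 155.79 and 201.16 TPM after 2 h, and 81.23 and 76.6 TPM after 6 h. The 3 groups did not overlap, and both 2 h libraries were above both 6 h libraries. Among the genes with any TPM in the group, its level was higher than that of 32.9% of 20042 genes before KCl, 95.6% of 20258 after 2 h, and 89% of 20335 after 6 h, so its level at 2 h was the 900th highest of the transcriptome.

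In normalized counts Npas4 went from 42.5 ± 6.45 (SD, n = 2) at 0 h to 8473 ± 1424 at 2 h. This was a log2 fold change of 7.64 (95% interval 7.22 to 8.07, adjusted p 3.23e-269), and over the 18 alternative settings it lay between 6.47 and 7.81 and was called in all 18. At 6 h it was at 3757 ± 202, a log2 fold change of 6.47 against 0 h (SE 0.22, adjusted p 9.73e-192), which is 88.6-fold, and this was also called in all 18 settings. Between 2 h and 6 h the log2 fold change was -1.17 (SE 0.16, 95% interval -1.49 to -0.86, adjusted p 4.75e-12), a 2.26-fold lower level. This last call sits at the fold threshold. It was lost with GC correction, with or without the replicate block (-0.99), without the second 2 h replicate (-0.98) and in a test against a 2-fold change, while the direction was the same in all 18 settings.

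Npas4 was thus the only member called higher at 2 h, among 3.62% of 16840 tested genes, and no member was among the 5.94% called lower. At 6 h against 0 h it was again the only member called, where 9.10% of 17277 genes were higher and 10.2% lower. At 6 h against 2 h, 3 members were called: Arnt and Npas2 among the 10.1% of 16404 genes that were higher, and Npas4 among the 8.02% that were lower. With 6 genes, counts of this size are a description of single genes and not of a family trend. The median log2 fold change of the 6 genes was 0.20, 0.26 and -0.38 in the 3 comparisons, against 0.02, 0.00 and -0.01 over all tested genes.

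**Figure D2:**
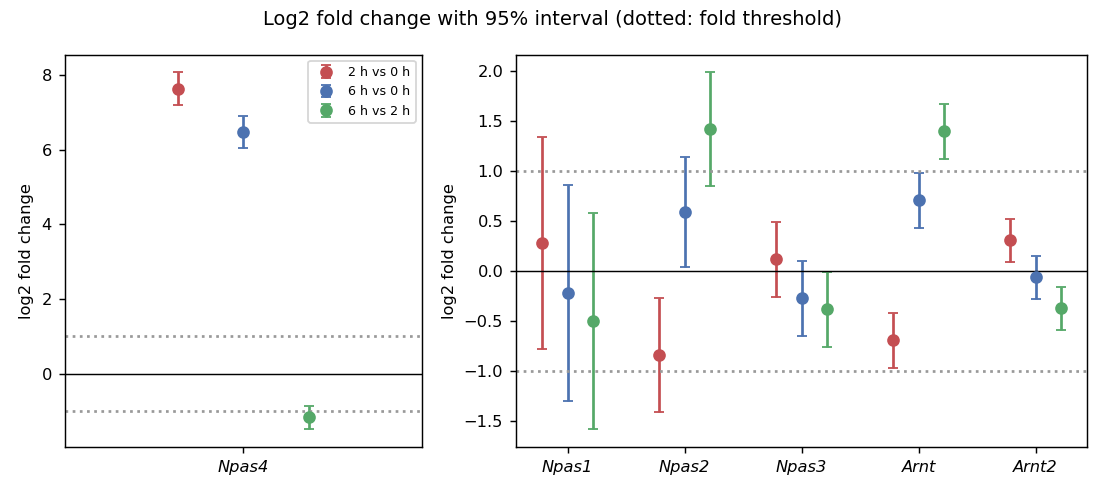
Log2 fold change from DESeq2 (vertical axis) with its 95% interval (bars) for Npas4 (left) and the other 5 genes (right, another scale) at 2 h against 0 h, 6 h against 0 h and 6 h against 2 h. Dotted lines mark the fold threshold of 1 on the log2 scale. The intervals of Arnt at 6 h against 2 h (1.12 to 1.68) lie above it, while those of Arnt2 and Npas3 stay between the dotted lines.

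Of the obligate partners, Arnt (ENSMUSG00000015522, chromosome 3, 95434388 to 95497240, plus strand) encodes the widely expressed partner of the hypoxia factors and the dioxin receptor. Its normalized counts were 593 and 554 before KCl, 366 and 343 after 2 h, and 936 and 934 after 6 h, and no 2 groups overlapped. At 2 h against 0 h its log2 fold change was -0.69 (SE 0.14, adjusted p 1.8e-05), a 1.62-fold lower level, which is under the fold threshold. At 6 h against 0 h it was 0.71 (SE 0.14, adjusted p 1.76e-06), a 1.63-fold higher level and again under it. From 2 h to 6 h Arnt rose by 1.40 on the log2 scale (SE 0.14, adjusted p 5.89e-21), or 2.63-fold. The rise was called in 17 of 18 alternatives, and the exception was the test against a 2-fold change (adjusted p 0.132).

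Arnt2 (ENSMUSG00000015709, chromosome 7, 84246278 to 84410176, minus strand), the partner that is abundant in the nervous system, was the steadier of the pair. Its normalized counts were 9597 and 9578 before KCl, 11309 and 12496 after 2 h, and 9514 and 8909 after 6 h. Both 2 h libraries were above the other 4, and the 6 h libraries were just below those of 0 h. The log2 fold change was 0.31 at 2 h against 0 h (SE 0.11, adjusted p 0.016), -0.06 at 6 h against 0 h (SE 0.11, adjusted p 0.7) and -0.37 at 6 h against 2 h (SE 0.11, adjusted p 0.00176). All 3 lie under the fold threshold, with 95% intervals of 0.10 to 0.52, -0.27 to 0.15 and -0.58 to -0.16, and the sign of the second turned with GC correction (0.03).

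Because Arnt and Arnt2 are alternative partners, their levels were set side by side per length. Arnt2 was at 118.97 and 119.88 TPM before KCl, 123.13 and 138.47 TPM after 2 h, and 103.36 and 98.55 TPM after 6 h. Arnt was at 12.71 and 11.68, then 7.06 and 7.31, then 16.76 and 18.45 TPM. The ratio of Arnt2 to Arnt was 9.81 ± 0.639 (SD, n = 2) before KCl, 18.2 ± 1.06 after 2 h, and 5.75 ± 0.584 after 6 h, and the libraries of the 3 groups did not overlap. Arnt thus made up 9.27%, 5.22% and 14.9% of the summed partner TPM. With 2 libraries per group a two-sided exact permutation test of a ratio cannot give a p below 0.333, so these are given as a description.

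The ratio of Npas4 to both partners together was then computed, as a level of transcripts and not of proteins or dimers. It was 0.00843 and 0.00692 before KCl, 1.20 and 1.38 after 2 h, and 0.676 and 0.655 after 6 h. Npas4 transcripts were thus more numerous than those of Arnt and Arnt2 combined in both 2 h libraries and fewer in both 6 h libraries. Npas4 made up 0.708% of the summed TPM of the 6 genes before KCl, 54.7% after 2 h, and 38.3% after 6 h, and the sum itself went from 143 to 325 and 206 TPM.

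**Figure D3:**
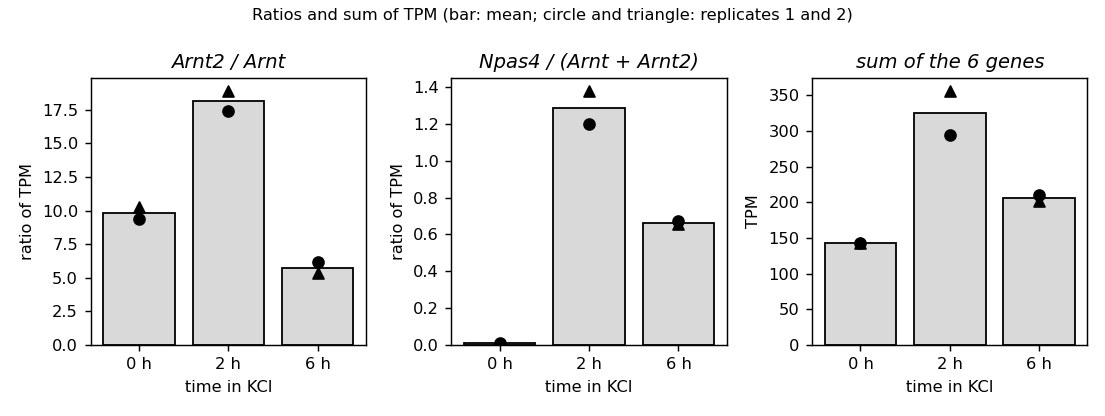
Ratio of Arnt2 to Arnt TPM (left), ratio of Npas4 to summed Arnt and Arnt2 TPM (middle) and summed TPM of the 6 genes (right) against hours in KCl. Bars are means of 2 libraries and start at 0, and circles and triangles are replicates 1 and 2. The first ratio is highest at 2 h (18.2) and lowest at 6 h (5.75), and the second exceeds 1 only at 2 h (1.29).

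Among the relatives, Npas2 (ENSMUSG00000026077, chromosome 1, 39193731 to 39363236, plus strand), the CLOCK-like member, had normalized counts of 107 and 147 before KCl, 65.9 and 76.5 after 2 h, and 180 and 202 after 6 h. The 2 h libraries were the lowest and the 6 h libraries the highest, without overlap. The log2 fold change was -0.84 at 2 h against 0 h (SE 0.29, adjusted p 0.0201), which is under the fold threshold, and it was called only with library totals (-1.0, adjusted p 0.0053). Against 0 h, the 6 h value was 0.59 (SE 0.28, adjusted p 0.0721). From 2 h to 6 h Npas2 rose by 1.42 (SE 0.29, adjusted p 6.18e-06), or 2.68-fold, and this was called in 16 of 18 alternatives. The exceptions were the test against a 2-fold change and limma on log2(TPM + 1), which compresses low values (0.92). In TPM Npas2 stayed low, at 1.92 and 2.66, then 1.04 and 1.23, then 2.83 and 3.24.

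A dip at 2 h, as in Arnt and Npas2, was also seen in the sum of the 7 markers of the oligodendrocyte lineage, which was 126 and 149 TPM before KCl, 96.2 and 114 TPM after 2 h, and 123 and 133 TPM after 6 h. Of the 7, Sox10 was called lower at 2 h against 0 h (-2.61) and higher at 6 h against 2 h (2.24), and no other of them was called in these comparisons. None of the 7 was at 0 in every library. The part of these cells in the levels of Arnt and Npas2 was not tested.

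Npas3 (ENSMUSG00000021010, chromosome 12, 53248677 to 54072175, plus strand), a factor known from brain development and from astrocytes and progenitors, was at 554 and 459 normalized counts before KCl, 609 and 490 after 2 h, and 425 and 417 after 6 h. The 0 h and 2 h libraries overlapped, and both 6 h libraries were below them. The log2 fold change was 0.12 (SE 0.19, adjusted p 0.737), -0.27 (SE 0.19, adjusted p 0.262) and -0.38 (SE 0.19, adjusted p 0.0897) at 2 h against 0 h, 6 h against 0 h and 6 h against 2 h. The first of these turned negative with library totals (-0.05). The 95% intervals ran from -0.25 to 0.49, -0.64 to 0.11 and -0.76 to -0.01, so that a change of 2-fold lies outside each. The 7 astrocyte markers were also lower in sum at 6 h, with 755 and 825 TPM before KCl, 726 and 759 TPM after 2 h, and 582 and 560 TPM after 6 h. None of the 7 was called, none was at 0 in every library, and their part in the level of Npas3 was not tested. The 7 markers of progenitors and dividing cells summed to 131 and 142, 133 and 131, and 151 and 143 TPM, and among them Nes was called higher and Hes5 lower at 6 h against 0 h (1.08 and -1.81).

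Npas1 (ENSMUSG00000001988, chromosome 7, 16455721 to 16477728, minus strand), known from subsets of inhibitory neurons, was the thinnest measurement, with 29 and 48 expected counts before KCl, 28 and 51 after 2 h, and 28 and 25 after 6 h. In normalized counts it was at 25.7 and 40.5, 28 and 52.7, and 30 and 26.9, and the libraries overlapped between all groups on that scale. The log2 fold change was 0.28 (SE 0.54), -0.22 (SE 0.55) and -0.50 (SE 0.55) at 2 h against 0 h, 6 h against 0 h and 6 h against 2 h (adjusted p 0.786, 0.782 and 0.481). The interval at 2 h against 0 h (-0.77 to 1.33) holds a 2-fold rise. Those at 6 h against 0 h (-1.30 to 0.85) and 6 h against 2 h (-1.58 to 0.57) hold a 2-fold fall. Such changes are therefore not excluded at this depth, and each sign turned when 1 library was left out. The summed level of 8 inhibitory neuron markers, Gad1 and Sst among them, went from 444 and 452 TPM before KCl to 591 and 670 after 2 h and 846 and 826 after 6 h, and Gad1, Gad2 and Sst were called higher at 6 h against 0 h (1.41, 1.36 and 1.05) while Lhx6 was not (-0.10). Dlx2 and Dlx5, also on the list, were called higher at 2 h against 0 h (1.12 and 1.62) and lower at 6 h against 2 h (-1.0 and -1.16), and were at 0.12 and 0.46 at 6 h against 0 h. Npas1 itself was at 1.01 and 1.62, 0.97 and 1.87, and 1.04 and 0.95 TPM, and the part of inhibitory neurons in its level was not tested. A rising sum was not particular to the inhibitory list. The 8 excitatory neuron markers summed to 477 and 472 TPM before KCl, 557 and 519 after 2 h, and 636 and 653 after 6 h.

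The order of the 6 genes by TPM changed with time. At 0 h it was Arnt2, Arnt, Npas3, Npas2, Npas1 and Npas4, and only the last pair, at 1.31 ± 0.431 and 1.01 ± 0.141 TPM (SD, n = 2), overlapped. At 2 h Npas4 was first with 178 ± 32.1 TPM, followed by Arnt2 at 131 ± 10.8, Arnt at 7.18 ± 0.177 and Npas3 at 6.15 ± 0.863, with Npas1 and Npas2 last and overlapping each other. At 6 h the order was Arnt2, Npas4, Arnt, Npas3, Npas2 and Npas1, with no overlap between neighbours. Npas1, Npas2 and Npas3 together held 7.03% of the summed TPM before KCl, 2.70% after 2 h, and 4.24% after 6 h.

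The gene models behind these values were checked as well. The expected counts of all 6 genes were whole numbers in all 6 libraries, with 0 in both of the decimals that the tables print. Only Npas3 and Arnt2 had exons that overlap another annotated gene, in both cases an antisense gene, which had 0 counts beside Npas3 and is not in the tables beside Arnt2. The tables hold 1 of 3 GENCODE M21 transcripts of Npas4, 1 of 4 of Npas1, 1 of 4 of Npas3 and 1 of 13 of Arnt2, so a change in the mix of transcripts cannot be seen for these. For Npas2 all 3 transcripts are listed, and its mean transcript length was 4236 bases in each library. Arnt, with all 11 transcripts listed, was the only member whose mean length varied, and its effective length (the number of positions at which a fragment can start, averaged over transcripts by abundance) was 3289.05 and 3365.31 bases before KCl, 3203.36 and 2954.4 after 2 h, and 3438.98 and 3173.49 after 6 h. The replicates at 2 h and 6 h were as far apart as the groups, and no comparison passed limma's test (log2 ratio -0.113, -0.010 and 0.103, adjusted p 0.703, 0.922 and 0.754 over 11233 genes).

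To place the 6 genes among their wider family, a list of 16 other genes was examined. It is called the bHLH-PAS list here, although Per1, Per2 and Per3 on it encode PAS proteins without the DNA-binding bHLH domain. Of the 16 genes, 15 had an adjusted p. At 2 h against 0 h, 2 were called higher (Per1 and Sim1) and 2 lower (Ahr and Hif3a), where 3.62% and 5.94% of all tested genes were. At 6 h against 0 h, 4 were higher (Clock, Per1, Per2 and Sim1) and Hif3a was lower, where 9.10% and 10.2% were. At 6 h against 2 h, 3 were higher (Ahr, Arntl and Per2) and none lower, where 10.1% and 8.02% were, but Arntl2 (-0.97) passed as lower with TMM factors, library totals or GC correction. Their median log2 fold change was 0.27, 0.52 and 0.46, against 0.02, 0.00 and -0.01 over all tested genes. Of the 15 tested, apart from Sim1 with its 0 counts before KCl, none had an absolute log2 fold change above that of Per1 at 6 h (2.41).

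The circadian members had different courses. Per1, a repressor of the clock that calcium and cyclic AMP signals induce, went from 522 and 559 normalized counts before KCl to 2025 and 2387 after 2 h and 2663 and 3097 after 6 h (log2 fold change 2.03 and 2.41, SE 0.15 each, adjusted p 1.35e-37 and 1.19e-53). Per2 rose mainly later, from 291 and 307 to 496 and 435 and then 1457 and 1375 (0.64 at 2 h, not called, and 2.24 at 6 h, adjusted p 2.33e-49), and it was called again from 2 h to 6 h (1.6). Arntl, which encodes the partner of NPAS2 and CLOCK, was at 728 and 673, 539 and 518, and 1238 and 1200, and rose by 1.21 from 2 h to 6 h (SE 0.13, adjusted p 2.23e-18). Like Arnt and Npas2, Arntl had its lowest libraries at 2 h and its highest at 6 h. Clock rose by 1.32 at 6 h against 0 h (SE 0.31, adjusted p 7.04e-05), but its 2 h libraries were at 1900 and 901. From 2 h to 6 h Clock was not called (0.96), but it passed in 4 of 18 alternatives, which were the replicate block (1.04), limma on log2(TPM + 0.1) (1.05), and the fits without the first 2 h replicate (1.61) or the second 6 h replicate (1.04).

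Among the members that sense ligands or oxygen, Ahr, the dioxin receptor and a partner of ARNT, went from 271 and 272 normalized counts before KCl to 81.9 and 67.2 after 2 h and 402 and 378 after 6 h. It fell by 1.86 at 2 h (SE 0.22, adjusted p 1.15e-15) and rose by 2.39 from 2 h to 6 h (SE 0.22, adjusted p 8.33e-26), both called in all 18 alternatives. Hif3a, a low-abundance member of the hypoxia group, was at 120 and 92.7, 26 and 31, and 15 and 33.3 normalized counts. Its log2 fold changes were -1.90 and -2.14 at 2 h and 6 h against 0 h (adjusted p 0.000422 and 3.85e-05). The first was not called without the first 0 h replicate (-1.69), and neither was called when tested against a 2-fold change. Over 16 alternatives the value at 6 h against 0 h lay between -2.83 and -1.67. The main hypoxia genes Hif1a and Epas1 were not called, with log2 fold changes between -0.56 and 0.46. Sim1, best known from the hypothalamus, had 0 counts in both 0 h libraries and 15 and 9.30 normalized counts at 2 h and 12.8 and 31.2 at 6 h, at least 4.7-fold and 8.5-fold higher when 3 counts per library are taken as the floor. Its call at 2 h (adjusted p 0.00154) was lost without either 0 h library and in the test against a 2-fold change. That at 6 h (adjusted p 0.000106) was kept. The coactivator genes Ncoa1, Ncoa2 and Ncoa3 were not called in any comparison, nor were Arntl2, Per3 and Ahrr with the main settings.

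**Figure D4:**
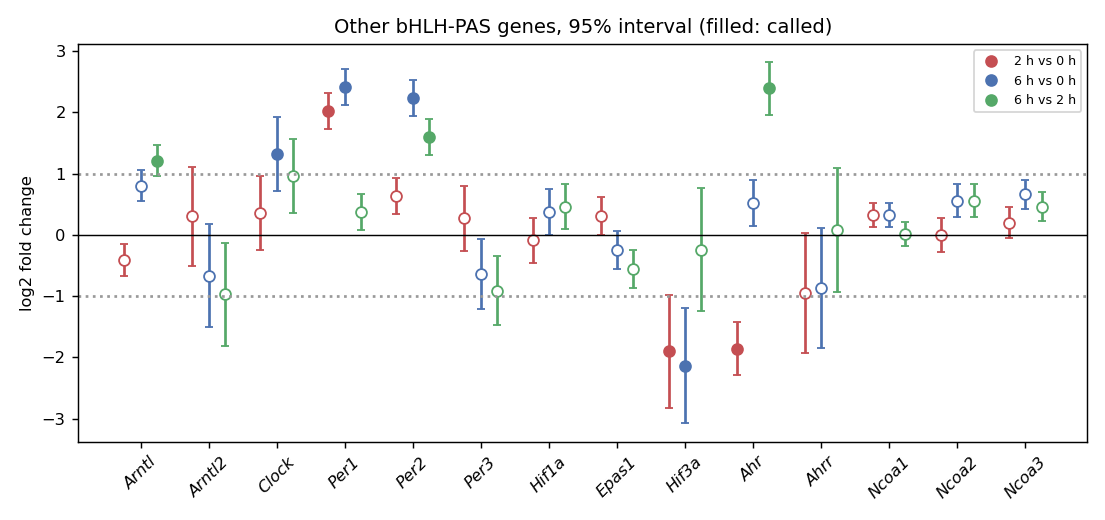
Log2 fold change (vertical axis) with its 95% interval (bars) for 14 genes of the bHLH-PAS list, Per1, Per2 and Per3 included, in the 3 comparisons. Filled points were called, and dotted lines mark the fold threshold. Sim1 and Sim2, with few or no counts at 0 h, are left out. Ahr is lower at 2 h (-1.86) and higher at 6 h against 2 h (2.39), and Per1 is higher at 2 h and 6 h against 0 h (2.03 and 2.41).

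Genes that have been tied to Npas4 in one kind of neuron or another were followed as a list of 9, chosen from background knowledge and with results of these data known, so that it is no independent evidence of a direction. At 2 h against 0 h, 7 of the 9 were called higher, where 3.62% of all tested genes were, and at 6 h against 0 h, 6 were, where 9.10% were. Between 2 h and 6 h, 2 were called higher and 2 lower, where 10.1% and 8.02% were. The median log2 fold change of the 9 was 2.44, 2.92 and 0.49 in the 3 comparisons, against 0.02, 0.00 and -0.01 over all tested genes. Bdnf, a neurotrophin gene, was at 99.4 and 79.2 normalized counts before KCl, 1707 and 1209 after 2 h, and 2580 and 2565 after 6 h. Nptx2, which encodes a secreted pentraxin of excitatory synapses, was at 68.4 and 88.5, 171 and 231, and 1041 and 1035, and its log2 fold change was 2.37 between 2 h and 6 h (SE 0.21, adjusted p 4.98e-27). Unlike Npas4, both were highest in the 6 h libraries.

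Plk2, a kinase gene of synaptic scaling, rose by 1.15 at 2 h (SE 0.12, adjusted p 7e-21) and was at 0.80 at 6 h, under the fold threshold, and its call at 2 h was lost with library totals (0.98) and with limma (0.96 and 0.97). Arc, which encodes a regulator of AMPA receptor uptake, rose by 2.44 and 2.92 at 2 h and 6 h against 0 h (adjusted p 3.12e-10 and 3.9e-15). The 0 h libraries of Arc were at 16 and 31.2 normalized counts, and its values were 1.29 and 1.67 with limma on log2(TPM + 1) and 3.01 and 3.49 without the second 0 h replicate, called in each case. Syt10, a synaptotagmin gene, was at 69.2 and 70.8, 52.9 and 27.9, and 111 and 94.6 normalized counts. With the main settings it was called only from 2 h to 6 h (1.35, SE 0.40, adjusted p 0.00248). This call was lost without the second 2 h replicate (0.97) or the first 6 h replicate (1.22), in the 2-fold test and with limma on log2(TPM + 1). At 2 h against 0 h Syt10 was at -0.79 and passed as lower only without the first 2 h replicate (-1.34). Mdm2, the ubiquitin ligase gene, was not called in any comparison, with a log2 fold change of 0.82 at 6 h against 0 h (adjusted p 1.05e-10). The transcription factor genes Fos, Egr1 and Nr4a1, which are early genes in their own right, were called higher at 2 h and 6 h against 0 h, and at 6 h against 2 h Egr1 (-1.26) and Nr4a1 (-1.37) were called lower. Whether any of these changes depended on Npas4 was not tested, since all cultures carry the intact gene.

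Finally, the genes with the course most like that of each called member were sought over the 6 libraries, by the Euclidean distance between log2(normalized count + 1) profiles centred on the 0 h mean, among 12289 other genes whose normalized counts averaged 50 or more. Fos was nearest to Npas4 by far, with a distance of 0.394, and then came Nr4a1 (2.70), Col10a1 (2.79), 1700016P03Rik (2.86) and Cldn15 (3.07). Fos was at 38.2 and 34.6 normalized counts before KCl, 6939 and 8222 after 2 h, and 3915 and 3806 after 6 h, and its log2 fold change between 2 h and 6 h was -0.97 (SE 0.14), just short of the fold threshold, against -1.17 for Npas4. The next genes are less alike than their rank implies: Col10a1 was higher at 6 h than at 2 h (172 and 163, then 424 and 387), and 1700016P03Rik, which hosts the activity-induced miR-212 and miR-132, had 0 counts in both 0 h libraries. Nearest to Arnt were Erlin1 (0.095), Maml2 (0.099), Nck1 (0.128), Pcsk5 (0.157) and Rapgef5 (0.162), and nearest to Npas2 were Id3 (0.245), Rai2 (0.315), Pfkfb3 (0.319), Trim11 (0.319) and Dpf2 (0.320). Having been chosen for that course, all 10 share the dip at 2 h and the higher level at 6 h by selection.

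**Figure D5:**
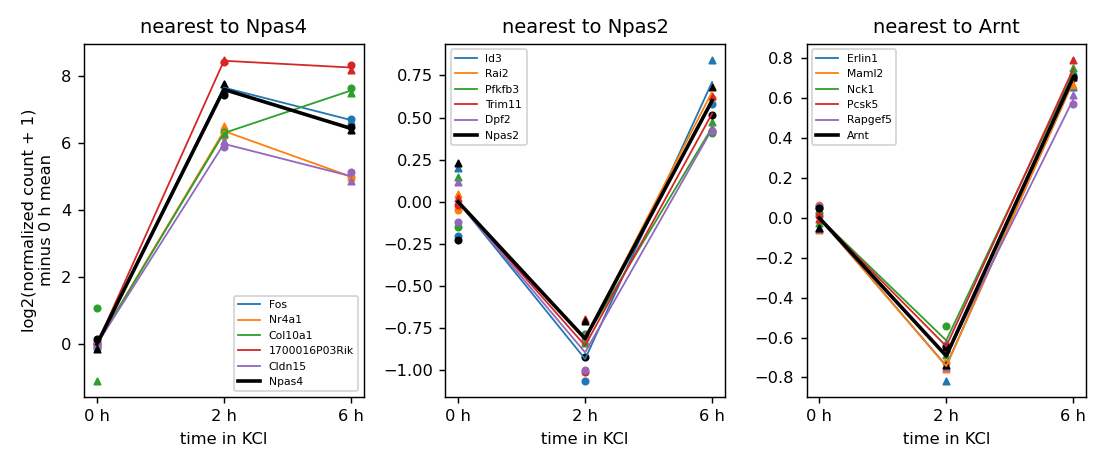
Log2(normalized count + 1) minus the 0 h mean (vertical axis) against time in KCl for Npas4 (left), Npas2 (middle) and Arnt (right) in black, with the 5 nearest genes of each in colour. Circles and triangles are replicates 1 and 2, and lines join the means of 2 libraries. Fos overlies Npas4 (distance 0.394), and the genes nearest to Arnt lie within 0.162 of it.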

How the data were processed

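Per the methods and the submitters' processing notes, poly(A) RNA was sequenced from stranded paired-end libraries, trimmed, mapped to mm10 and quantified by the authors with RSEM (RSEM 1.3.0 and Bowtie2 2.2.9 are named, the annotation release is not given in the sources used here). The authors deposited expected counts without normalization. They are accompanied by TPM, for which the authors divided by effective length and by the library's sum, and by each gene's effective length in bases as the authors' software estimated it. The FPKM column was not used here.

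Expected counts were rounded and fitted with DESeq2 1.42.0 (R 4.3.3) over all genes in 1 model of the 6 libraries with time as its term, median-of-ratios size factors, unshrunken fold changes, the Wald test and Benjamini-Hochberg adjustment over all genes kept by independent filtering. Intervals are 95% Wald intervals. Effective lengths were tested with limma 3.58.1 where expected counts averaged 100 or more. Of 43432 genes, 42462 were matched to a symbol, and positions are from GENCODE M21 (GRCm38, the build the authors used). Promoter windows are from RefSeq (GRCm38.p6). Alternatives were edgeR 4.0.16, other scalings and filters, GC correction, a replicate block, limma on log2(TPM + 1) and log2(TPM + 0.1) for genes with a mean of at least 1 TPM, and leaving out each library. The fits were tested on simulated data.

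Named are the 6 members, family and Npas4-linked genes called in any comparison, and the 5 genes nearest in profile to each called member. Other names are examples. Members and lists were chosen with earlier results of these data known. RNA bisulfite data were not analysed here.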

Additional observations from a re-analysis of the deposited data

How the results depend on the processing

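Npas4 was called at 2 h and 6 h against 0 h under all 18 alternatives. The lower level of Npas4 at 6 h than at 2 h (main value -1.17) was -0.99 with GC correction, -0.99 with the replicate block and GC correction together, and -1.17 but not called when tested against a 2-fold change, and it ran from -1.33 to -0.98 when 1 library was left out, where only the lack of the second 2 h replicate ended the call. The Arnt2 value at 6 h against 0 h turned to 0.03 with GC correction and to 0.03 with the block and GC correction. Tested against a 2-fold change, the values of Npas2 (1.42) and Arnt (1.40) at 6 h against 2 h were no longer called, and with limma on log2(TPM + 1) that of Npas2 was 0.92. With library totals Npas2 was called lower at 2 h (-1.0). Npas3 at 2 h against 0 h was -0.05 with library totals and -0.06 with limma at either pseudocount, and it ran from -0.06 to 0.27 when 1 library was left out. Npas1 ran from -0.26 to 0.66 at 2 h against 0 h, from -0.51 to 0.15 at 6 h against 0 h and from -0.88 to 0.04 at 6 h against 2 h. Leaving out 1 library also gave ranges that cross 0 for Clock at 2 h against 0 h (-0.29 to 0.78), Hif3a at 6 h against 2 h (-0.93 to 0.23) and Gfap at 2 h against 0 h (-0.47 to 0.23), and moved the Arnt effective length at 6 h against 0 h over a range from -0.068 to 0.048. The causes were not tested.

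Among counts of called genes, the test against a 2-fold change left 178 higher and 225 lower at 2 h against 0 h, 446 and 414 at 6 h against 0 h, and 342 and 198 at 6 h against 2 h, where the main settings gave 609 and 1000, 1572 and 1761, and 1654 and 1316, because it asks for more than a point estimate past the threshold. With limma, over fewer genes tested, 257 (pseudocount 1) and 334 (pseudocount 0.1) genes were higher and 904 and 1171 lower at 2 h, 764 and 918 were higher and 1550 and 1960 lower at 6 h against 0 h, and 1157 and 1473 were higher and 763 and 1120 lower at 6 h against 2 h. The lower calls thus made up a larger share in both comparisons with 0 h than with the main settings. With library totals 1032 were higher at 6 h against 0 h. Of the 6 members, 1 was lower at 2 h with library totals, 0 were higher at 6 h against 2 h in the 2-fold test and 1 with limma on log2(TPM + 1), and 0 were lower in the 2-fold test, with GC correction and with the block and GC correction (from 0 to 1 without 1 library). Of the other genes on the bHLH-PAS list, the 2-fold test left 1 higher and 1 lower at 2 h and 0 lower at 6 h against 0 h. These counts were the same with limma at either pseudocount, but Sim1 and Hif3a fell below its TPM filter and were not tested there. TMM factors, library totals and GC correction called 1 lower at 6 h against 2 h. Leaving out 1 library gave from 1 to 2 higher and from 1 to 2 lower at 2 h. Of the Npas4-linked genes, 1 was higher at 6 h against 2 h in the 2-fold test and with limma on log2(TPM + 1), 0 were lower in the 2-fold test, and leaving out 1 library gave from 1 to 3 higher there and from 0 to 1 lower at 2 h.

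The groups share replicate numbers. The deviations of same-numbered libraries correlated by 0.281, -0.002 and 0.152 over 12290 genes in the 3 comparisons, and by 0.09, -0.064 and 0.038 after GC correction. No label ties the numbers to a litter or day and 1 correlation was not positive, so the numbers were not taken to pair the samples. With the replicate block alone, Npas4 was at 7.64, 6.47 and -1.17, no member's call changed, Clock was called higher at 6 h against 2 h (1.04), and 548 genes were higher and 967 lower at 2 h. Depth limits Npas1, with at most 51 counts in a library, and 2 libraries per group limit all the ratios.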
